A study of Mus musculus with 9 samples.

Results

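The haemoglobin genes were followed in RNA from the mouse hippocampus together with Alas2. They were the alpha-globin genes Hba-a1 and Hba-a2, the adult beta-globin genes Hbb-bs and Hbb-bt, and the theta-globin gene Hbq1b, while Alas2 encodes the erythroid form of the first enzyme of haem synthesis. These 6 genes were picked by name out of the 33175 genes that had a count in at least 1 library. They were picked with their differences between these groups already known. Their levels and fold changes are thus a description, and the calls and p-values given for them below support nothing. The 9 libraries came from female mice aged 9 months, with 3 libraries in each of 3 groups. WT vehicle mice were C57BL/6J and received the blank solvent by mouth 4 times per week. 3xTg vehicle mice received the same solvent on the same schedule. The 3xTg LP-10d mice were given the compound LP-10d by mouth at 10 mg/kg, also 4 times per week, over 1 month. Both 3xTg groups carry mutant human APP (APPSwe), mutant human tau (tauP301L) and a mutant presenilin 1, which the labels write as PS1M146V for the first sample and with a number higher by 1 in each sample after it, up to PS1M151V. In the 3xTg line the APP and tau transgenes are driven by the Thy1 promoter, which is active in neurons. The labels do not give the strain background of the 3xTg mice, so strain and transgenes cannot be told apart in any comparison with the wild type. They do not state that the replicates are separate animals either, so the spread shown is the spread between these libraries.

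Adult haemoglobin is built from alpha and beta chains, each of which holds a haem group that binds oxygen. In red cell precursors the transcription factors GATA1 and KLF1 act on both globin clusters, and the distal enhancers of the alpha cluster lie within introns of the neighbouring gene Nprl3. Young red cells in the circulation still carry globin mRNA, so any brain tissue that holds blood gives globin reads, and globin transcripts have also been described in neurons and glia. Theta-globin genes lie in the same cluster as the alpha genes, with Hbq1b between Hba-a1 and Hba-a2. No function of their protein is established. In bulk RNA, a difference in the number of cells of a type and a difference in RNA per cell cannot be told apart.

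The sequences show which of these genes can be separated by counting reads. Hba-a1 (ENSMUSG00000069919, mm10 chr11:32283511-32284465, plus strand) and Hba-a2 (ENSMUSG00000069917, chr11:32296489-32297298, plus strand) have main transcripts of 699 and 554 bases in GENCODE. Over 538 aligned bases these transcripts matched at 537. The 1 mismatch, C577T, counted from 1 at the start of the Hba-a1 transcript, lies in codon 127 of the coding sequence, at position 32284343 of chromosome 11 for Hba-a1. The stretches of 29 coding bases around it are shown with the differing base in capitals.
Hba-a1: catgcctctctggaCaaattccttgcctc
Hba-a2: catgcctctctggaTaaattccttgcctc
Of all stretches of 100 bases in the Hba-a2 transcript, 74.5% also occur in the Hba-a1 transcript, and 56.5% of those of Hba-a1 occur in Hba-a2. The beta genes Hbb-bs (ENSMUSG00000052305, chr7:103826534-103828096, minus strand) and Hbb-bt (ENSMUSG00000073940, chr7:103812524-103813996, minus strand) differed at 41 of 616 aligned bases, and 62.6% of the stretches of 100 bases in Hbb-bs occur in Hbb-bt and 54.8% of those of Hbb-bt in Hbb-bs. Hbq1b (ENSMUSG00000073063, chr11:32286965-32287784, plus strand) differed from its copy Hbq1a at 33 of 562 aligned bases, with 26.6% of its stretches of 100 bases in Hbq1a, and shared no stretch of 50 bases with Hba-a1. Alas2 (ENSMUSG00000025270) lies on the X chromosome at chrX:150547375-150570638, plus strand. No source used here tells how the authors treated reads that fit several genes, so the division of counts within the alpha pair, within the beta pair and between Hbq1b and Hbq1a is uncertain.

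The bases upstream of the genes are shown because the members did not all move together, and 4 short motifs were searched in them on both strands. These were GATAA, the core bound by GATA factors, the CACCC box bound by KLF factors, the CCAAT box of many promoters, and the TATA-like run ATATAA. The windows are the 250 bases before each RefSeq start (GRCm38.p6, the same build as mm10), and what is printed ends where the gene begins in the deposited annotation, which for some genes lies further upstream. Capitals mark the motifs on either strand, and neighbouring matches run together; the last capitals of Hbb-bt begin a motif that runs on past the printed end. The window of Hba-a2, chr11:32296242-32296488 as printed, stands for both alpha genes, since the windows of Hba-a1 and Hba-a2 matched at 247 of 247 aligned bases. Hbb-bt is chr7:103813997-103814173 on the minus strand, Hbq1b chr11:32286714-32286963 and Alas2 chrX:150547167-150547374.
Hba-a2: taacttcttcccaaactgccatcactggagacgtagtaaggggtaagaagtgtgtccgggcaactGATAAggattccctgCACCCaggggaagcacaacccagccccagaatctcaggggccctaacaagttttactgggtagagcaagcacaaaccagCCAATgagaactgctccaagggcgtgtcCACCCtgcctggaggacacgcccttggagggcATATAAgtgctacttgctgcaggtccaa
Hbb-bt: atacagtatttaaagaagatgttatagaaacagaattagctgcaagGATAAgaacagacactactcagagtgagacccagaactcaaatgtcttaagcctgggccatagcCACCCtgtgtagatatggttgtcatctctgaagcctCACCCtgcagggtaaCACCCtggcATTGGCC
Hbq1b: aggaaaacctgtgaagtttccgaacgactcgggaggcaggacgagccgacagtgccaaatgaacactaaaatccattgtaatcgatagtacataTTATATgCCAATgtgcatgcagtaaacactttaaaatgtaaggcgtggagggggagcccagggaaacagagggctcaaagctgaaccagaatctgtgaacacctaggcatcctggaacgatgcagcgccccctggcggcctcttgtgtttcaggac
Alas2: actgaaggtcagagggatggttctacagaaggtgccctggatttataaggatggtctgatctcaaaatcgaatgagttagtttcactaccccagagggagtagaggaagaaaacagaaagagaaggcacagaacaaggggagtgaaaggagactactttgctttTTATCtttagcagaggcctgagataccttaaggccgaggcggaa
In the full windows, Hba-a1, Hba-a2, Hbb-bs and Hbb-bt each held all 4 motifs. Hbq1b held CCAAT and, on the minus strand, ATATAA, and neither GATAA nor CACCC was found in its window. Alas2 held GATAA once and CACCC 3 times, all on the minus strand, the latter in the bases not printed. Of 32851 upstream windows of the same length, 22.6% held GATAA, 52.0% CACCC, 33.8% CCAAT and 9.10% ATATAA.

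Some libraries stood apart before any comparison. The library labelled 3xTg vehicle 1 held transcripts made in liver, and its 8 liver genes, among them albumin (Alb), summed to 5151 counts against 4 to 18 in the 8 other libraries. This library also had the highest summed globin level, so log2 differences from the 3xTg vehicle group are given without it too. WT vehicle 3 had 5.04% mitochondrial counts against 2.28% to 2.86% elsewhere and the lowest summed globin level. 3xTg vehicle 2 had 990 CPM of 10 striatal and thalamic markers against 94.8 to 302 elsewhere. Hippocampal markers such as Dkk3 and Fibcd1 were present in every group, and their levels and those of choroid plexus markers, which both differed between groups on average, are given with the other marker lists. Total counts ran from 16582086 to 19170969 per library, of which the 5 globin genes took 588 to 3309.

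Levels are given as CPM, counts scaled to the library size after edgeR's TMM correction, and per length as the deposited FPKM, which divides the scaled counts by gene length. Between genes, FPKM over all 9 libraries put Hba-a1 first with a mean of 64.3, followed by Hbb-bs with 45.5, Hbb-bt with 9.88 and Hba-a2 with 3.85. Hbq1b and Alas2 both had a mean of 1.33 FPKM. The ranges of Hba-a1 (12.8 to 123 FPKM) and Hbb-bs (22.2 to 79.1 FPKM) overlapped over most of their length, so these neighbours in the order were not apart. This order is one over all libraries and not that of each group. In WT vehicle 1, 2 and 3, Hba-a1 was at 22.3, 37.4 and 12.8 FPKM and Hbb-bs at 22.2, 42.0 and 22.3 FPKM. Hba-a1 was thus nearly equal to Hbb-bs in WT vehicle 1 and below it in WT vehicle 2 and 3. Hbq1b was at 0.153, 0.372 and 0.360 FPKM in these libraries and Alas2 at 0.9002, 1.39 and 0.391 FPKM, so that Alas2 was the higher of the pair in every wild-type library.

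The summed level of the 5 globin genes was higher in 3xTg mice than in the wild type and lay in between in treated 3xTg mice. It was 42.8, 72.4 and 32.7 CPM in WT vehicle 1, 2 and 3. In 3xTg vehicle it was 174, 104 and 162 CPM, and in 3xTg LP-10d 112, 71.9 and 102 CPM. All 3xTg vehicle libraries lay above all WT vehicle libraries, whereas the lowest treated library lay just under the highest wild-type one. Group means were 49.3 ± 20.6, 147 ± 37.3 and 95.4 ± 21.0 CPM (SD, n = 3 each). The log2 difference of summed globin was 1.62 for 3xTg vehicle against WT vehicle and 1.01 for LP-10d-treated 3xTg against WT vehicle. Without 3xTg vehicle 1 the first of these was 1.48.

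**Figure D1:**
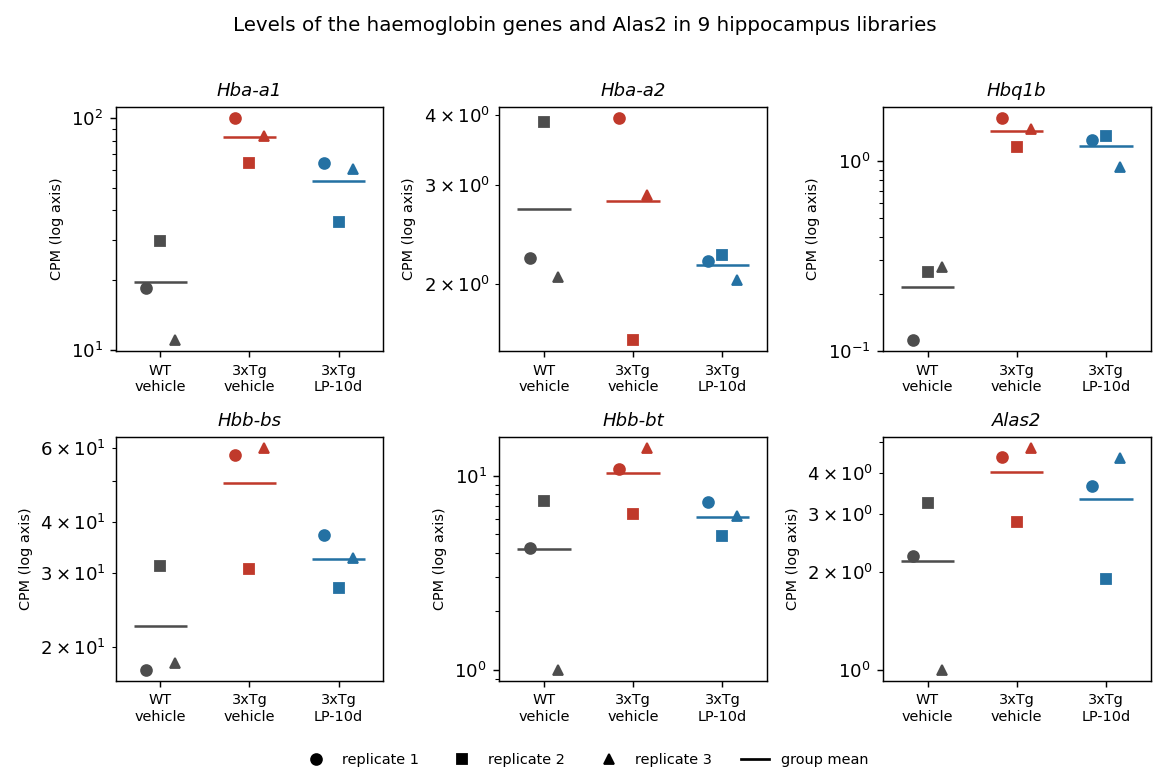
Levels of the 6 genes in each of the 9 libraries, in CPM on a log axis whose range differs between panels; symbols give the replicate number and bars the group mean. For Hba-a1 and Hbq1b every 3xTg library lies above every wild-type library, while the groups overlap for Hba-a2, Hbb-bs, Hbb-bt and Alas2 between 3xTg and WT vehicle.

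Hba-a1, which gives most of the alpha-globin reads, had the highest mean CPM of the 6 genes in both 3xTg groups, and in WT vehicle Hbb-bs had the highest. The level of Hba-a1 was 18.6, 29.5 and 11.1 CPM in WT vehicle 1, 2 and 3. In 3xTg vehicle it was 99.9, 64.4 and 83.4 CPM, and in 3xTg LP-10d 64.3, 35.7 and 60.4 CPM. Every 3xTg library, treated or not, lay above every wild-type library, and WT vehicle 2 was the nearest to them. Means were 19.7 ± 9.27, 82.6 ± 17.8 and 53.5 ± 15.5 CPM (SD, n = 3 each), so that the 3xTg vehicle mean was 4.18 times the wild-type mean. The fitted log2 fold change was 2.06 ± 0.33 (SE) for 3xTg vehicle and 1.44 ± 0.33 for 3xTg LP-10d, both against WT vehicle. Without 3xTg vehicle 1 the first was 1.90.

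Hba-a2, the other adult alpha gene, differed little between groups. WT vehicle 1, 2 and 3 had 2.23, 3.88 and 2.06 CPM of Hba-a2, the 3xTg vehicle libraries 3.95, 1.59 and 2.89 CPM, and the 3xTg LP-10d libraries 2.20, 2.25 and 2.03 CPM. The lowest and the highest library both belonged to 3xTg vehicle, and the groups overlapped. The log2 fold change of Hba-a2 was 0.05 ± 0.33 (SE) for 3xTg vehicle and -0.34 ± 0.34 for 3xTg LP-10d against WT vehicle. Its sign for 3xTg vehicle changed when WT vehicle 1, WT vehicle 3 or 3xTg vehicle 1 was left out, with values between -0.29 and 0.40 over the 9 libraries left out in turn. Since the copies are near-identical, the sum of both alpha genes is given too. It does not depend on how shared reads were divided between them, but it lacks such reads if they were left out. Means of this sum were 22.5 ± 10.2, 85.4 ± 18.97 and 55.7 ± 15.4 CPM in WT vehicle, 3xTg vehicle and 3xTg LP-10d (SD, n = 3 each).

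The beta genes were higher on average in 3xTg mice, by less than Hba-a1. Hbb-bs, the more abundant of the pair, had 17.6, 31.3 and 18.3 CPM in WT vehicle 1, 2 and 3. In 3xTg vehicle it was at 57.7, 30.8 and 60.2 CPM, and in 3xTg LP-10d at 37.0, 27.7 and 32.7 CPM. WT vehicle 2 lay above 3xTg vehicle 2 and 3xTg LP-10d 2, so the groups overlapped. Means of Hbb-bs were 22.4 ± 7.74, 49.6 ± 16.3 and 32.5 ± 4.67 CPM (SD, n = 3 each), and its log2 fold change against WT vehicle was 1.14 ± 0.28 (SE) in 3xTg vehicle and 0.53 ± 0.28 in 3xTg LP-10d. The first was 1.02 without 3xTg vehicle 1.

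Hbb-bt is the minor beta gene. WT vehicle 1, 2 and 3 had 4.23, 7.39 and 1.00 CPM of it, the 3xTg vehicle libraries 10.8, 6.36 and 13.9 CPM, and the 3xTg LP-10d libraries 7.28, 4.86 and 6.20 CPM. WT vehicle 3 was far below the others with 18 counts, and WT vehicle 2 overlapped both 3xTg groups. The log2 fold change of Hbb-bt against WT vehicle was 1.29 ± 0.49 (SE) in 3xTg vehicle and 0.53 ± 0.51 in 3xTg LP-10d. WT vehicle libraries decided these values: without WT vehicle 3 they were 0.82 and 0.07, and without WT vehicle 2 they were 1.99 and 1.23. The first was 1.26 when 3xTg vehicle 1 was left out.

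Hbq1b had the largest fold change of the 6 genes against WT vehicle and the lowest counts. It had 2, 5 and 5 counts in WT vehicle, 32, 21 and 27 in 3xTg vehicle, and 23, 23 and 17 in 3xTg LP-10d. Every 3xTg library held at least 17 counts and no wild-type library more than 5. In CPM the means were 0.218 ± 0.0903, 1.45 ± 0.247 and 1.20 ± 0.232 (SD, n = 3 each). Hbq1b passed the filter on low counts (at least 10 counts in enough libraries) only through its 3xTg libraries, while the other 5 genes had at least 10 counts in all 9 libraries. Pooled over a group and scaled for library size, its counts in 3xTg vehicle were 6.62 times those in WT vehicle (80 against 12 counts, exact 95% interval 3.59 to 13.3), and those in 3xTg LP-10d 5.42 times (63 against 12 counts, 2.90 to 11.1). These intervals cover counting error only and not the spread between libraries. The fitted log2 fold change was 2.69 ± 0.36 (SE) in 3xTg vehicle, the 10th largest among 17396 genes, and 2.41 ± 0.37 in 3xTg LP-10d, the 7th largest. Without 3xTg vehicle 1 the first was 2.56.

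The copy Hbq1a gave 2, 7 and 1 counts in WT vehicle, 6, 3 and 6 in 3xTg vehicle and 6, 6 and 6 in 3xTg LP-10d. These counts overlapped between groups and were too few to place a difference, with a pooled ratio of 3xTg vehicle to WT vehicle of 1.49 (0.626 to 3.70). The sum over the pair covers reads divided between the copies, but not any that were left out. Its ratio to WT vehicle was 4.28 (2.67 to 7.16) in 3xTg vehicle and 3.805 (2.35 to 6.40) in 3xTg LP-10d. On this sum, too, all 6 3xTg libraries lay above the 3 wild-type libraries.

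Alas2, the erythroid enzyme, had 2.23, 3.25 and 1.00 CPM in WT vehicle 1, 2 and 3. Its level was 4.47, 2.84 and 4.79 CPM in 3xTg vehicle and 3.67, 1.90 and 4.45 CPM in 3xTg LP-10d. WT vehicle 2 lay above the replicate 2 libraries of both 3xTg groups, and the groups overlapped. Means were 2.16 ± 1.13, 4.03 ± 1.05 and 3.34 ± 1.31 CPM (SD, n = 3 each), with a log2 fold change of 0.89 ± 0.40 (SE) in 3xTg vehicle and 0.63 ± 0.41 in 3xTg LP-10d against WT vehicle. The first value was 0.81 without 3xTg vehicle 1. Leaving out single libraries moved it between 0.55 and 1.33 and the second between 0.28 and 1.06.

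**Figure D2:**
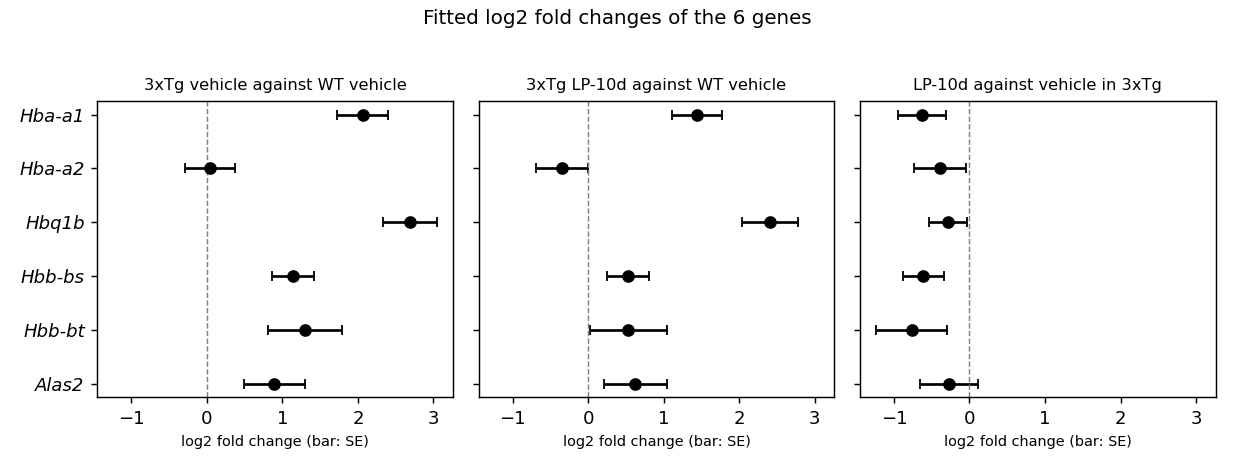
Fitted log2 fold changes of the 6 genes from 1 edgeR fit of all 9 libraries, with bars for 1 SE, in 3 comparisons. Hbq1b and Hba-a1 lie farthest to the right in both comparisons with WT vehicle, and all 6 points lie left of 0 in LP-10d against vehicle. There the bar of Alas2 crosses 0 and those of Hba-a2 and Hbq1b end close to 0.

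Against the background of all 17396 genes tested, the counts of members read as follows. In 3xTg vehicle against WT vehicle, 2 of the 6 genes, Hba-a1 and Hbq1b, were higher with no overlap between groups, where 9.38% of all genes were. The same 2 genes met this in 3xTg LP-10d against WT vehicle (7.49% of all genes) and in all 6 3xTg libraries against WT vehicle (3.83%). These comparisons share the WT vehicle libraries, and the genes were picked with them known, so nothing is read from the counts. The median log2 fold change of the 6 genes was 1.22, 0.58 and 0.88 in these comparisons, beside medians over all genes of 0.00066, -0.0027 and -1.8e-05. With edgeR's quasi-likelihood test and Benjamini-Hochberg adjustment at 0.05, 0 of the 6 genes were called in 3xTg vehicle against WT vehicle, where 0.00575% of all genes were, and 0 in the other 3 comparisons, where 0% were. At an unadjusted edgeR p under 0.05 there were 4 members in 3xTg vehicle against WT vehicle (14.1% of all genes), 2 in 3xTg LP-10d against WT vehicle (8.75%), 3 in all 3xTg against WT vehicle (14.8%) and 1 in LP-10d against vehicle (2.9%). DESeq2 called Hba-a1, Hbb-bs and Hbq1b in 3xTg vehicle against WT vehicle (2.02% of all genes) and in all 3xTg (1.81%), Hba-a1 and Hbq1b in 3xTg LP-10d against WT vehicle (0.264%), and 0 members in LP-10d against vehicle (0.00575%). Limma-trend on log2 of FPKM plus 1 called Hbq1b in 3xTg vehicle (0.0115% of all genes) and in all 3xTg (0.00575%). On FPKM plus 0.1 it called Hbq1b in 3xTg vehicle (0.0172%), and no other member was called on either scale. As the members were picked with these comparisons known, their calls and p-values are given as values only and are no support. Hbq1b also passed the filter on low counts only through its 3xTg libraries.

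LP-10d-treated 3xTg libraries had lower means than vehicle 3xTg libraries for all 6 genes, within a wide spread. The 2 groups overlapped for 5 of the genes. Hba-a1 did not overlap, a pattern that 5.81% of all genes showed in the lower direction, but its highest treated library (64.3 CPM) and its lowest vehicle library (64.4 CPM) were nearly equal. Log2 fold changes of LP-10d against vehicle were -0.63 ± 0.32 (SE) for Hba-a1, -0.39 ± 0.34 for Hba-a2, -0.61 ± 0.27 for Hbb-bs and -0.76 ± 0.47 for Hbb-bt. They were -0.28 ± 0.25 for Hbq1b and -0.27 ± 0.38 for Alas2, and the pooled Hbq1b count ratio was 0.820 (exact 95% interval 0.580 to 1.16). The summed globin level had a log2 difference of -0.61, which became -0.47 without 3xTg vehicle 1 and -0.42 without 3xTg LP-10d 2. Without 3xTg vehicle 1 the log2 fold changes of LP-10d against vehicle were -0.46 for Hba-a1, -0.05 for Hba-a2, -0.48 for Hbb-bs, -0.72 for Hbb-bt, -0.15 for Hbq1b and -0.18 for Alas2. All 6 thus kept their sign, and that of Hba-a2 came close to 0. For Alas2 the difference became 0.01 without 3xTg LP-10d 2.

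Ratios between members within a library take out how much globin RNA the library holds. The ratio of Hba-a2 to Hba-a1 counts was 0.120, 0.131 and 0.186 in WT vehicle, 0.0395, 0.0247 and 0.0346 in 3xTg vehicle, and 0.0342, 0.0630 and 0.0336 in 3xTg LP-10d. All 6 3xTg libraries lay below all 3 wild-type libraries, with a log2 difference of -1.96 between their means. The ratio of summed alpha to summed beta counts was 0.955, 0.862 and 0.680 in WT vehicle, 1.51, 1.78 and 1.16 in 3xTg vehicle, and 1.502, 1.17 and 1.61 in 3xTg LP-10d. Here all 3xTg libraries lay above 1 and all wild-type libraries below 1, a log2 difference of 0.80. The ratio of Hba-a2 to summed beta counts was close to equal within the wild type, at 0.102, 0.1001 and 0.107, and lay between 0.0389 and 0.0692 in the 6 3xTg libraries. The ratio of Hba-a1 to summed beta was 0.573 to 0.853 in WT vehicle and 1.10 to 1.73 in the 3xTg libraries, so within the alpha pair Hba-a1 was higher and Hba-a2 lower relative to beta.

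**Figure D3:**
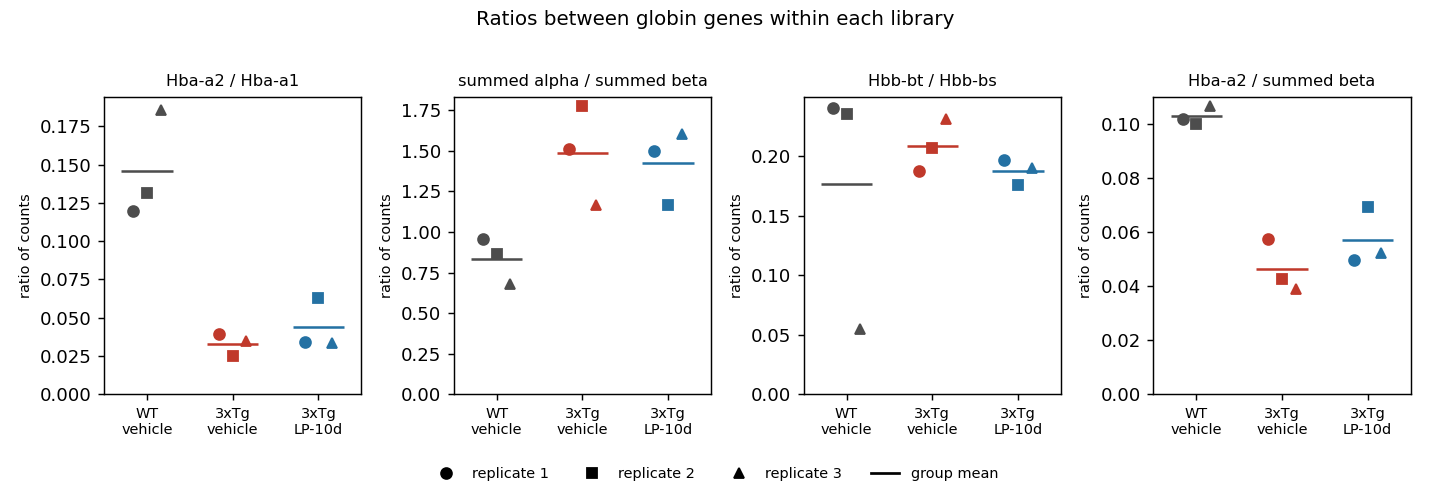
Ratios of counts between globin genes within each library, on linear axes that start at 0; symbols give the replicate and bars the group mean. Hba-a2 to Hba-a1 and Hba-a2 to beta are lower, and alpha to beta is higher, in every 3xTg library than in every wild-type library, and WT vehicle 3 is apart in Hbb-bt to Hbb-bs.

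Within the beta pair the ratio of Hbb-bt to Hbb-bs was 0.240, 0.236 and 0.0547 in WT vehicle. It was 0.188, 0.207 and 0.231 in 3xTg vehicle and 0.197, 0.176 and 0.190 in 3xTg LP-10d. WT vehicle 3 was the 1 library outside 0.176 to 0.240, and leaving it out turned the log2 difference of all 3xTg against WT vehicle from 0.44 to -0.27. Treated and vehicle 3xTg libraries overlapped in all 3 ratios, with log2 differences of 0.37 for Hba-a2 to Hba-a1, -0.05 for alpha to beta and -0.15 for Hbb-bt to Hbb-bs. These were 0.51, -0.03 and -0.22 without 3xTg vehicle 1. The same 3 ratios had log2 differences of -2.15, 0.83 and 0.51 in 3xTg vehicle against WT vehicle, and -2.29, 0.80 and 0.58 without that library. Exact two-sided permutation tests of these 3 ratios in 4 comparisons gave no p under 0.05 after Benjamini-Hochberg adjustment over the 12 tests, with a smallest adjusted p of 0.0714. Tests of 3 against 3 libraries cannot go below 0.1, and since the genes were picked with the comparisons known these tests support nothing here.

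Hbq1b was also set against summed alpha counts, and Alas2 against summed beta counts. Hbq1b was 0.00548, 0.00785 and 0.0212 of summed alpha counts in WT vehicle 1, 2 and 3. It was 0.0162, 0.0181 and 0.0170 in 3xTg vehicle and 0.0195, 0.0359 and 0.0149 in 3xTg LP-10d. WT vehicle 3, with 5 Hbq1b counts over the lowest alpha level, fell among the 3xTg libraries, so the groups overlapped. Alas2 was 0.0519 to 0.102 of summed beta counts in WT vehicle, 0.0646 to 0.0765 in 3xTg vehicle and 0.0583 to 0.114 in 3xTg LP-10d, with overlap between all groups.

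Other globin genes gave few or no counts, or similar levels in the 3 groups. Of 14 further globin genes looked for, 12 matched by name, and the embryonic genes Hba-x and Hbb-bh1, the related Hbb-bh0, Hbb-bh2 and Hbb-bh3 and the pseudogene Hba-ps3 had 0 counts in all libraries, which allows up to 3 counts in each. Embryonic Hbb-y had 4 counts over all libraries. The 2 that could be tested are made in nervous tissue. Cytoglobin (Cygb) was at 46.7 ± 7.31, 50.01 ± 4.39 and 46.3 ± 3.88 CPM in WT vehicle, 3xTg vehicle and 3xTg LP-10d, and neuroglobin (Ngb) at 3.92 ± 3.62, 4.43 ± 0.634 and 4.85 ± 0.261 CPM (SD, n = 3 each). Neither passed edgeR's adjusted threshold in any comparison.

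Genes around the alpha cluster, of haem handling and of red cell regulation were read from 5 lists of such genes, chosen with earlier results of these data known, and 0 of their tested genes passed edgeR's adjusted threshold in any comparison. Of the 6 tested neighbours of the alpha cluster, 5 were higher and 1 lower in 3xTg vehicle than in WT vehicle, with a median log2 fold change of 0.03. In this comparison 50.2% of all genes tested were higher. Nprl3, which houses the alpha enhancers, was at 44.7 ± 2.24, 45.4 ± 4.57 and 45.1 ± 1.89 CPM in WT vehicle, 3xTg vehicle and 3xTg LP-10d, and the splicing factor gene Luc7l at 103 ± 17.7, 106 ± 4.28 and 110 ± 4.54 CPM (SD, n = 3 each). Of 19 genes of haem synthesis and transport, 14 were higher and 5 lower, with a median of 0.06. Alas1, the housekeeping counterpart of Alas2, was at 66.0 ± 4.35, 65.3 ± 7.64 and 65.4 ± 6.71 CPM, and Fech, which inserts iron to form haem, at 68.6 ± 13.9, 57.3 ± 4.31 and 59.2 ± 2.19 CPM.

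Among genes of haem breakdown, haemoglobin clearance and iron, 14 of 19 tested were higher and 5 lower in 3xTg vehicle, with a median log2 fold change of 0.11. Beside this, 50.2% of all genes tested were higher in 3xTg vehicle than in WT vehicle. Fth1, the ferritin heavy chain that stores iron, was at 2409 ± 96.9, 1908 ± 218 and 2145 ± 125 CPM in the 3 groups (SD, n = 3 each). Its log2 fold change was -0.34 ± 0.11 (SE) in 3xTg vehicle. DESeq2 called Fth1 in that comparison, beside 2.02% of all genes, and edgeR did not. In the library with liver transcripts, haptoglobin (Hp), which binds free haemoglobin, had 387 counts against 4 to 14 elsewhere, and hemopexin (Hpx), which binds free haem, 527 counts against 3 to 13. Haem oxygenase 1 (Hmox1), which degrades haem, had 352 counts there against 86 to 128. Of 12 erythroid transcription factors, 8 could be tested, 3 higher and 5 lower, with a median of -0.07. Gata1, Gfi1b, Nfe2 and Klf1 were near 0, with 2, 1, 13 and 34 counts over all 9 libraries. Of 12 red cell genes that brain cells also express, 6 were higher and 6 lower.

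Markers of blood and vessel cells were set beside the globin levels. Of 17 red cell markers, 16 matched and 5 could be tested, and defining ones were at or near 0: over all 9 libraries Slc4a1, the anion exchanger of the red cell membrane, had 34 counts, Rhag 4 and Epb42 3. Slc4a1 had 1, 8 and 0 counts in WT vehicle, 5, 5 and 6 in 3xTg vehicle and 4, 2 and 3 in 3xTg LP-10d. The summed level of all 16 markers, carried by genes that brain cells express such as Sptb and Tmcc2, was 854 to 972 CPM in WT vehicle, 851 to 924 in 3xTg vehicle and 859 to 920 in 3xTg LP-10d. Neutrophil markers, 11 genes of which 7 had 0 counts in at least 1 library, summed to 1.26, 5.03 and 0.667 CPM in WT vehicle. In 3xTg vehicle they summed to 3.16, 1.25 and 4.30 CPM, and in 3xTg LP-10d to 1.47, 1.13 and 1.54 CPM. Within each of the 3 groups, the library with the lowest summed globin level also had the lowest neutrophil sum. At the upper end they parted: in both 3xTg groups replicate 1 had the highest globin level and replicate 3 the highest neutrophil sum, and WT vehicle 2 had the highest neutrophil sum of all libraries at a globin level below all 3xTg libraries but 1. Their part in the globin differences was not tested.

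**Figure D4:**
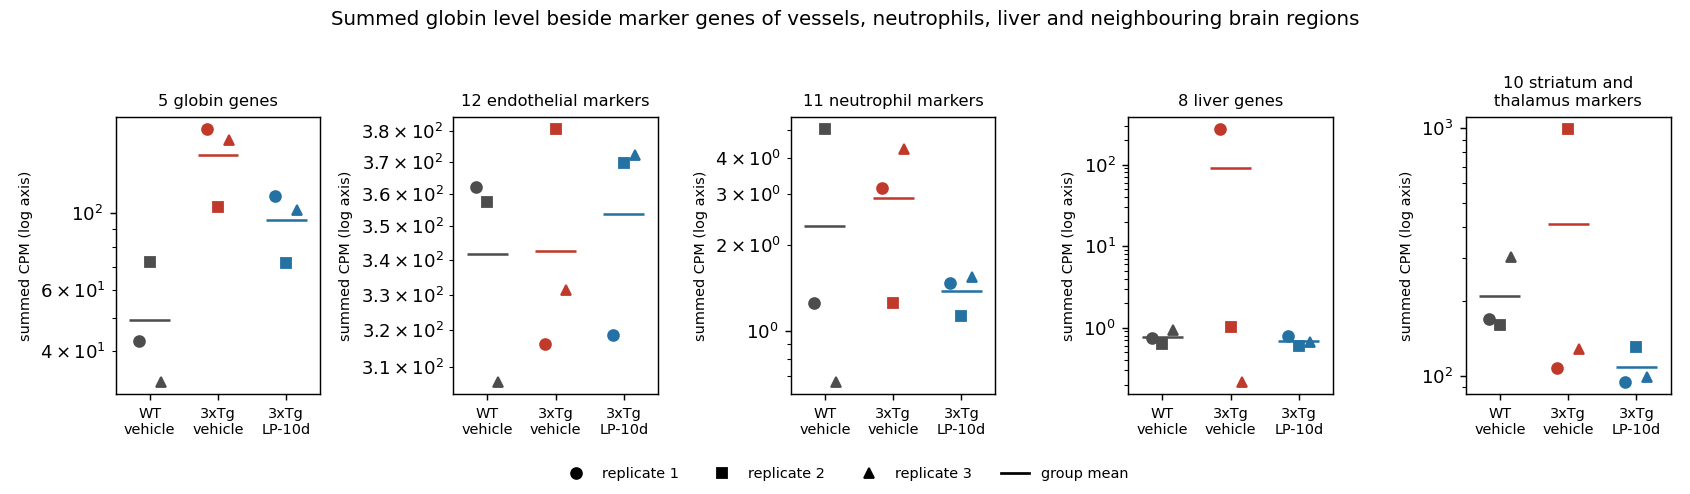
Summed CPM of the 5 globin genes and of 4 marker lists in each library, on log axes whose ranges differ between panels; symbols give the replicate and bars the group mean. Endothelial sums overlap between the groups while globin sums are higher in 3xTg vehicle, and 1 library each stands apart in liver genes and in striatal and thalamic markers.

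Endothelial markers summed to 306 to 362 CPM in WT vehicle, 316 to 381 in 3xTg vehicle and 319 to 372 in 3xTg LP-10d, and mural cell markers to 276 to 279, 262 to 289 and 259 to 287 CPM. Platelet markers summed to 4.45 to 7.18, 5.85 to 6.58 and 4.50 to 7.59 CPM, so these 3 lists overlapped between all groups. B cell markers summed to 15.9 to 29.5, 24.6 to 26.6 and 17.2 to 22.2 CPM, T and NK cell markers to 1.71 to 2.52, 1.32 to 2.95 and 1.30 to 1.75 CPM, and blood monocyte markers to 0.457 to 1.62, 0.368 to 0.545 and 0.494 to 0.949 CPM in the same order. Meningeal fibroblast markers summed to 61.0 to 91.3 CPM in WT vehicle, 60.2 to 81.2 in 3xTg vehicle and 48.3 to 107 in 3xTg LP-10d.

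Markers of the choroid plexus, which lines the ventricles, and of the hippocampus differed between the groups on average. Choroid plexus markers summed to 63.5, 4473 and 2422 CPM in WT vehicle 1, 2 and 3, to 946, 136 and 52.7 CPM in 3xTg vehicle and to 1508, 2691 and 45.8 CPM in 3xTg LP-10d, so the sums overlapped between all groups. All 10 of these markers had lower fitted levels in 3xTg vehicle than in WT vehicle, with a median log2 fold change of -2.71. At an unadjusted p under 0.05 were 6 of them, beside 14.1% of all genes. All 10 had higher fitted levels in LP-10d against vehicle, with a median of 1.90 and 0 at an unadjusted p under 0.05 (2.9% of all genes). Hippocampal markers summed to 1488 to 1739 CPM in WT vehicle, 997 to 1614 in 3xTg vehicle and 1393 to 1543 in 3xTg LP-10d. Of these 10 markers, 9 were lower in 3xTg vehicle than in WT vehicle (median -0.54, 3 at an unadjusted p under 0.05 beside 14.1% of all genes). In all 3xTg against WT vehicle 9 were lower (median -0.41, 5 at an unadjusted p under 0.05 beside 14.8% of all genes). The choroid plexus medians had the opposite sign to those of the 6 members in 3xTg vehicle against WT vehicle and in LP-10d against vehicle. Between single libraries the order was mixed. WT vehicle 2 and 3xTg vehicle 1 had both the highest choroid plexus sum and the highest summed globin level (72.4 and 174 CPM) of their groups. In 3xTg LP-10d, replicate 2 had the highest choroid plexus sum and the lowest summed globin level (71.9 CPM). The part of either list in the globin differences was not tested.

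Over all lists, 138 genes besides the members were tested, and edgeR's adjusted threshold was passed by 0 of them in each of the 4 comparisons. At an unadjusted p under 0.05 there were 26 in 3xTg vehicle against WT vehicle (18.8%, beside 14.1% of all genes) and 11 in LP-10d against vehicle (7.97% beside 2.9%). Of these 26, 6 were choroid plexus and 4 striatal and thalamic markers. Of the 11 in LP-10d against vehicle, 6 were striatal and thalamic markers, whose sum stood apart in 3xTg vehicle 2 (990 CPM). Another 3 were of haem breakdown, haemoglobin clearance and iron, a list in which Hp and Hmox1 stood apart in 3xTg vehicle 1. The part of other tissue in these shares was not tested. There were 11 in 3xTg LP-10d against WT vehicle (7.97% beside 8.75%) and 21 in all 3xTg against WT vehicle (15.2% beside 14.8%). Of the 138 genes, DESeq2 called only Fth1 in 3xTg vehicle against WT vehicle, beside 2.02% of all genes. It called only the immunoglobulin gene Igkc in all 3xTg against WT vehicle, beside 1.81% of all genes. Igkc was lower in 3xTg, with means of 1.61, 0.666 and 0.475 CPM in WT vehicle, 3xTg vehicle and 3xTg LP-10d.

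Genes most like a member were taken by the root mean square difference of centred log2 of CPM plus 0.5 over the 9 libraries. On this measure 0 is an identical pattern, and the offset shrinks the differences of genes with low CPM, Hbq1b among them. For Hbb-bs they were 9330179D12Rik (0.214), Pamr1 (0.219), the MHC class I gene H2-Q1 (0.229), Apol7a (0.241) and Olfm2 (0.244), while a gene with no change would stand at 0.572. Of the members, Alas2 was the nearest to Hbb-bs (0.329, 55th of all genes) and Hba-a1 the farthest (0.528, 3683rd). For Hbq1b the nearest genes were Usp43 (0.260), the hyaluronan synthase gene Has1 (0.271), AA414992 (0.286), H2-Bl (0.287) and Sec14l3 (0.294), against 0.656 for no change. The nearest member was Hbb-bs (0.408, 78th), while Hba-a2 (0.733) and Hbb-bt (0.702) lay farther from Hbq1b than a gene with no change. For Alas2 the nearest genes were the immunoproteasome gene Psmb10 (0.210), Ier5 (0.221), the lactate transporter gene Slc16a3 (0.237), Ltk (0.238) and Gm4349 (0.239), against 0.563 for no change. The nearest member was again Hbb-bs (0.329, 93rd), while Hbq1b (0.582) lay farther from Alas2 than a gene with no change.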

How the data were processed

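Per the labels' protocols, hippocampal RNA of each of the 9 libraries was taken up in TRIzol, cleaned on a column and turned into an MGIEasy library, with 300 ng as input. The authors deposited raw counts for 55471 genes and FPKM values for the 33175 genes with a count, on genome build mm10 (submitters' processing notes). Not given in the sources used here are the aligner, the counter, the strand setting and the treatment of reads that fit several genes. Total counts of 16582086 to 19170969 set the precision of low genes.

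Counts were fitted with edgeR 4.0.16 in R 4.3.3: filterByExpr (17396 genes), TMM scaling, the 9 libraries in 1 model of group means, the quasi-likelihood test (newer method) and Benjamini-Hochberg adjustment at 0.05. Alternatives were DESeq2 1.42.0, limma-trend (limma 3.58.1) on log2 of FPKM plus 0.1 or 1, DESeq2 size factors in edgeR, no filter, a replicate block, a model of the compared libraries alone, each library left out in turn, and WT vehicle 3 left out with 3xTg vehicle 2; the legacy quasi-likelihood method, the sum of Hbq1b and Hbq1a, and the liver genes were added after seeing the data. The methods were tested on simulated data. The 6 members, the gene lists and the tests were chosen with earlier results of these data known. The members are always named; per list up to 4 genes with the highest mean CPM may be named, and the 5 genes most like Hbb-bs, Hbq1b and Alas2. Other genes named (Gata1, Gfi1b, Nfe2, Klf1, Hp, Hpx, Hmox1, Slc4a1 and further red cell genes, Alb, Igkc) were chosen after their values were seen, as were Hbq1a and the globin genes at 0. Upstream sequences are RefSeq's (GRCm38.p6), and all 6 members matched; transcripts are GENCODE's (release M21). Values of some genes in the lists are not reported here.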

Additional observations from a re-analysis of the deposited data

Results flagged for a closer look

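Among the 6 3xTg libraries, 14 measures (the 6 members, the globin sum and 7 ratios) were checked for a library far from the others by Dixon's rule, under which chance alone flags about 1 group in 20. One was found: the ratio of Hbq1b to summed alpha counts was 3.59% in 3xTg LP-10d 2, against 1.49% to 1.95% in the other 5 libraries. That library had 23 Hbq1b counts, the same number as 3xTg LP-10d 1, and the lowest Hba-a1 level of the 3xTg libraries (35.7 CPM).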

How the results depend on the processing

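The log2 difference of the summed globin level kept its direction under every alternative run, from 1.36 to 1.94 for 3xTg vehicle and 0.75 to 1.33 for 3xTg LP-10d against WT vehicle, 1.06 to 1.63 for all 3xTg, and -0.84 to -0.42 for LP-10d against vehicle. The 3 ratios within a library kept their direction when taken from FPKM, but not all did with single libraries left out. The log2 difference of Hbb-bt to Hbb-bs then ran from -0.20 to 0.87 for 3xTg vehicle against WT vehicle. It ran from -0.35 to 0.72 for 3xTg LP-10d against WT vehicle and from -0.27 to 0.80 for all 3xTg. Alpha to beta ran from -0.22 to 0.09 for LP-10d against vehicle, and the other log2 differences of ratios kept their sign. The number of genes called over all genes was less stable, and the cause was not tested. In 3xTg vehicle against WT vehicle edgeR called 1 gene, and 3 with no filter, 352 with DESeq2, 3 and 2 with limma-trend at pseudocounts of 0.1 and 1, and 0 to 11 with single libraries left out. In LP-10d against vehicle it called 0, and DESeq2 1. In 3xTg LP-10d against WT vehicle it called 0, DESeq2 46, and 0 to 2 were called with single libraries left out. In all 3xTg against WT vehicle it called 0, and 1 with no filter, 315 with DESeq2, 1 with limma-trend at a pseudocount of 1, 1 without WT vehicle 3 and 3xTg vehicle 2, and 0 to 4 with single libraries left out. The replicate numbers gave no clear pairing of the samples. Deviations of same-numbered libraries had correlations from -0.17 to 0.38, and a library was closest to its own number in 6 of 18 cases. Between 3xTg vehicle and 3xTg LP-10d the correlations were 0.19, 0.09 and 0.38 for replicates 1, 2 and 3. Between WT vehicle and the 3xTg groups they ran from -0.17 to 0.19. With the replicate block 1, 0, 0 and 0 genes were called in the 4 comparisons. The summed globin differences were 1.62, -0.61, 1.01 and 1.31, equal to the unblocked ones by construction, but the spread was not equal. For LP-10d against vehicle, the log2 differences within replicate numbers had an SD of 0.067, beside a pooled SD within groups of 0.37. These were 0.96 and 0.50 in 3xTg vehicle against WT vehicle, and 0.89 and 0.48 in 3xTg LP-10d against WT vehicle. For Hbq1b the log2 fold change against WT vehicle was 1.22, 1.04 and 1.13 in 3xTg vehicle, 3xTg LP-10d and all 3xTg on log2 of FPKM plus 1, a scale that understates low genes, and 2.08 and 1.997 in 3xTg vehicle and all 3xTg when summed with Hbq1a. Depth limits Hbq1b most: its wild-type level rests on 12 counts. A fit of only the libraries compared was not run for all 3xTg, which uses all 9.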
